A study of Saccharomyces cerevisiae with 60 samples.

Results

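The cytosolic ribosomal protein genes of budding yeast, Saccharomyces cerevisiae, were followed on arrays of 2 colours in 9 strains, each grown with copper sulfate and in a rich medium. Members were the array rows whose platform gene symbol was RPL (large subunit) or RPS (small subunit) followed by digits and an optional A or B. This rule found 128 of 5524 named genes, 74 of the large and 54 of the small subunit, each with 1 row. Both copies of 54 A and B pairs were present (108 genes). A further 17 genes had a name with no copy letter, and 3 were measured without their partner copy. The R64 gene table lists 4 more genes under the rule, which were not analysed here.

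A cytosolic ribosome joins a small subunit, which decodes the messenger, to a large subunit, which forms the peptide bond. In yeast most of its proteins are encoded by a pair of gene copies that arose from a whole-genome duplication, named A and B, whose proteins are identical or nearly so. The genes rank among the most strongly transcribed in growing cells and are known to be switched together through Rap1, Fhl1, Ifh1 and Sfp1, downstream of the TOR and protein kinase A pathways, rising with growth rate and falling in stress.

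The strains were S288C, the common laboratory strain, YPS163, and M5, M8, M13, M14, M22, M32 and M34. Total RNA came from exponentially growing cells. On 54 arrays, 1 strain in 1 medium was hybridized against the pooled RNA of all 9 strains in that same medium, with 3 replicates for each of the 18 combinations. These arrays therefore compare strains within a medium, each against a pool that includes its own RNA. On the other 6 arrays the copper pool was hybridized directly against the rich-medium pool. The labels give no ploidy, copper dose or growth rate, and do not say whether replicates were separate cultures, so p-values measure the spread between arrays, which may be technical.

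Values are log2 ratios, centred on each array's median over all rows and corrected for a trend over spot positions. The copper sign convention was likely rather than stated. It rests on CUP1-1, the copper-binding metallothionein, which read 4.08 to 8.73 over the 6 pool arrays when values are turned to copper over rich medium. Several facts of the arrays bear on every result below. Pool arrays with the same channel order correlated with each other over all genes (median r 0.53, 7 pairs), and those with opposite orders tended to oppose (median r -0.30, lowest -0.53, 8 pairs, of which 4 lay under -0.3). Over the 128 genes alone, the opposite orders correlated at a median of -0.45 and 6 of 8 pairs lay under -0.3. The direction is therefore not settled by the arrays as a whole. If all 6 pool arrays were turned together, every pool value below would keep its size and take the opposite sign. If the arrays of 1 order alone were turned, sizes would change too, and CUP1-1 would take opposite signs in the orders. In each strain the array of replicate 1 carried the strain in channel 2, as did replicate 3 of M5 in rich medium, and the others carried it in channel 1.

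The first question is how the ribosomal protein genes of the mixed strains differed between copper and rich medium. They stayed close to the bulk of the genome. The fitted log2 change, copper over rich, had a median of -0.09 over the 128 genes and of -0.03 over all genes. The large subunit had a median of -0.08 and the small subunit of -0.10. A copies had a median of -0.06, B copies of -0.15 and genes named with no letter of -0.06. Fitted values ran from -0.78 to 0.45, and 124 of 128 lay between -0.5 and 0.5, as did 95.6% of all genes. Of the 128, 89 (69.5%) lay below 0, against 56.8% of all genes.

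Array by array, the median over the 128 genes was -0.19, 0.29, -0.07, -0.35, -0.02 and -0.05 for pool arrays 1 to 6. It was below 0 on 5 arrays and above 0 on array 2, with an SD of 0.21 between arrays, which is larger than the fitted median itself. Without array 4 the fitted median was -0.02, and with centring but no position correction it was -0.17. The large and small subunit medians were -0.23 and -0.10 on array 1, 0.27 and 0.35 on array 2, and -0.37 and -0.32 on array 4. They were 0 and -0.09 on array 5, and -0.07 and -0.01 on array 6. On array 3 they had opposite signs, 0.06 and -0.14. The median standard error of a member was 0.155 (0.129 for all genes), and the 95% interval lay within -1 to 1 for 123 of the 128. A change by a factor of 2 in either direction thus lay outside the interval of those 123 genes.

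**Figure D1:**
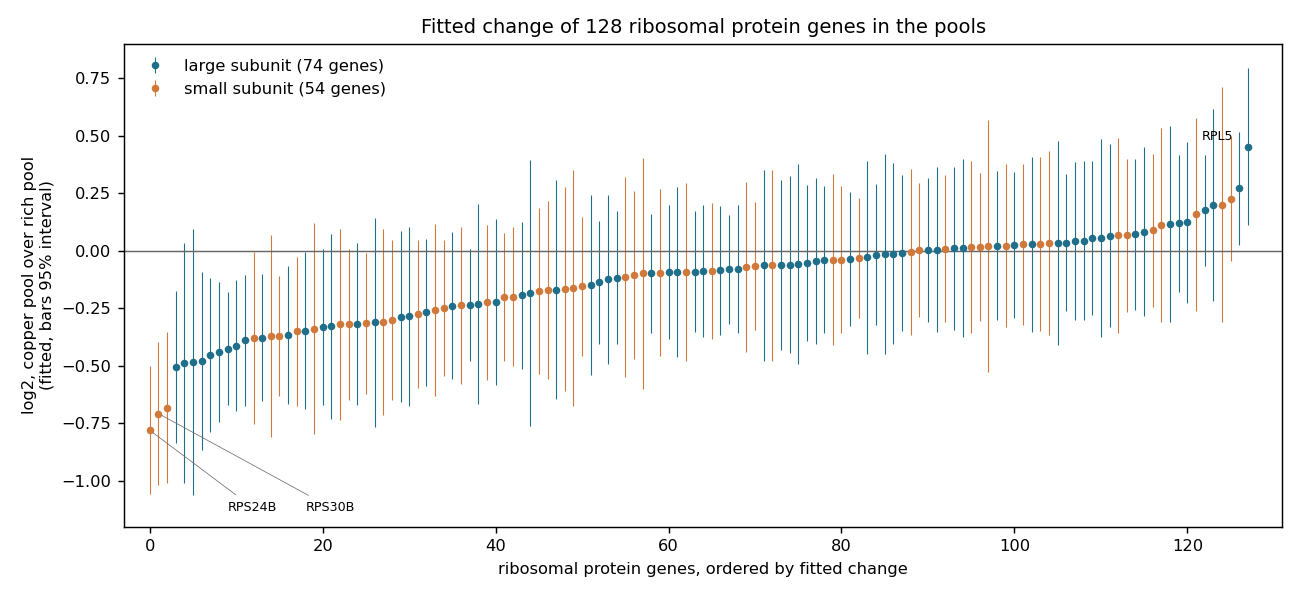
Fitted log2 change (copper pool over rich pool, vertical axis) of each of the 128 genes, ordered from lowest to highest, with 95% intervals from limma and colour for the subunit. Values run from -0.78 (RPS24B) to 0.45 (RPL5), both subunits are spread along the whole order, and RPS24B and RPS30B lie at the low end.

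No member was called higher in copper by limma at an adjusted p of 0.05 and 2 were called lower, where 1.34% of all genes were called higher and 0.253% lower. At an unadjusted p under 0.05, 2 of 128 members were higher and 17 lower, where 383 of all 5524 genes were higher and 429 lower. In either direction this came to 14.8% of the members and 14.7% of all genes, with the members mostly on the lower side. Both calls were B copies of the small subunit. RPS24B, which encodes the protein eS24, read -1.54, 0.42, -1.67, -0.10, -0.29 and 0.15 on the 6 pool arrays. Its values were low on arrays 1 and 3, the arrays with the copper pool in channel 1, and within 0.5 of 0 on the others. Its fitted change was -0.78 ± 0.12 (SE, n = 6 arrays, limma adjusted p = 0.0138).

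RPS30B, which encodes eS30, read -1.50, 0.54, -1.49, -0.15, -0.34 and 0.28. Its fitted change was -0.71 ± 0.14 (SE, n = 6, limma adjusted p = 0.0368). Both genes had the same shape, far below 0 on arrays 1 and 3 and near or above 0 on the rest. With the copper pool in channel 1 (2 arrays) the means were -1.61 for RPS24B and -1.50 for RPS30B, and with it in channel 2 (4 arrays) they were 0.04 and 0.08. The falls were therefore present in 1 of the 2 orders. Without array 1 the adjusted p of RPS24B was 0.0883 and without array 3 it was 0.210, and RPS30B lost its call without array 1, 3, 4 or 5.

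Both genes also share a place on the array. In the layout inferred from the row numbers, which has 16 blocks of 16 lines and 24 columns, RPS24B and RPS30B lay in block 13 and in column 5 of it. Block 13 held 10 members, and all 10 had a fitted pool value below 0, from -0.78 to -0.32, with a median of -0.45. The median of all genes of that block was -0.05. The channel effect of these 10 members, the difference of a gene between the orders, ran from -2.12 to -0.64 with a median of -1.56, where that of all genes of the block was 0.09. Block 13 also held RPL32, RPS20, RPL16A, RPL8A, RPS14A, RPS15 and RPL4A. In blocks 5, 9, 10 and 14 as well, all members were below 0, so that 5 blocks held 32 members with no value above 0. In block 3, by contrast, 4 of 11 members were below 0. The median of all genes stayed between -0.07 and 0.00 in every block. Outside block 13 the 118 remaining members had a median of -0.07, a range from -0.51 to 0.45 and a lowest adjusted p of 0.154. The part of block and channel in these results was not tested.

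**Figure D2:**
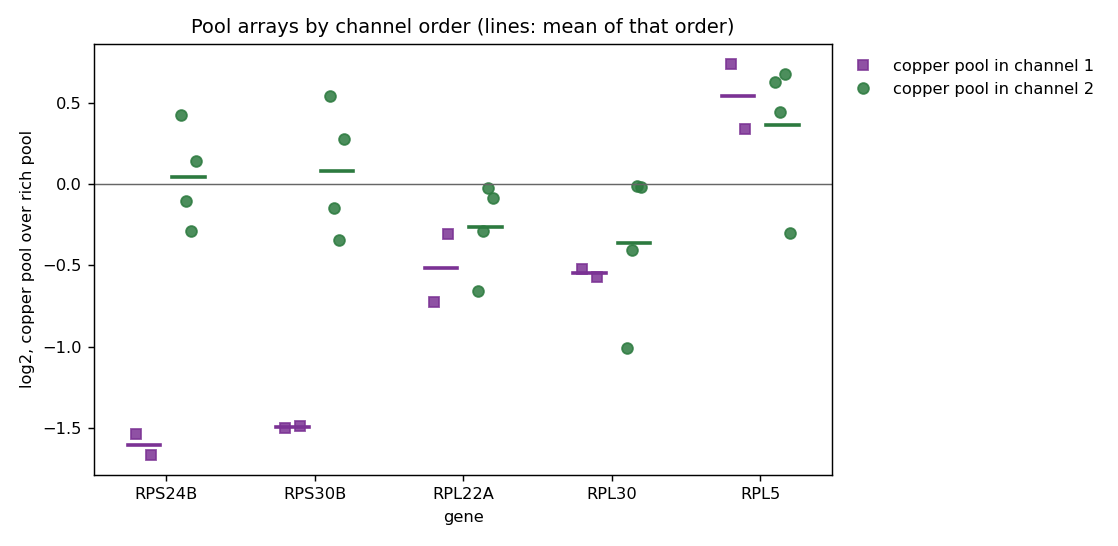
Log2 ratio (copper pool over rich pool) of 5 genes on each of the 6 pool arrays, split by the channel that held the copper pool, with a line at the mean of each order. RPS24B and RPS30B are far below 0 on the 2 arrays of one order and near 0 on the other 4, while RPL22A and RPL30 are below 0 and RPL5 mostly above 0 in both orders.

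Over all members, 23 of 128 (18%) had a called channel effect in the pools, where 20.5% of all genes had one. Of those 23, 8 were in block 13. Below 0 on all 6 arrays, and so in both orders, were 3 members, RPL30, RPL31A and RPL22A, all of the large subunit and together all members of block 9. They were picked for this after their values were seen. RPL30, whose protein is known to block the splicing of its own transcript, read -0.52, -1.01, -0.57, -0.41, -0.01 and -0.02. Its fitted change was -0.45 (limma adjusted p = 0.208). RPL22A read -0.72, -0.66, -0.31, -0.29, -0.02 and -0.09, with a fitted change of -0.39 (adjusted p = 0.201). RPL31A had a fitted change of -0.41 (adjusted p = 0.175). None of the 3 passed the test. No member was above 0 on all 6 arrays. A single side on all 6 arrays was found for 2.34% of members and 5.21% of all genes.

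At the upper end stood RPL5, whose protein carries 5S ribosomal RNA into the large subunit. It read 0.74, 0.63, 0.34, 0.44, 0.68 and -0.30, above 0 on 5 of 6 arrays and alike in both orders. The fitted change was 0.45 ± 0.15 (SE, n = 6, limma adjusted p = 0.218). RPL21B (0.27), RPS9A (0.22), RPS4A (0.20), RPL26A (0.20) and RPL22B (0.18) followed, and none passed the test. At the lower end RPL37A (-0.51), RPL23A (-0.49) and RPL4A (-0.48) were among the lowest after the called genes, with adjusted p from 0.154 to 0.418. RPL4A, which lies in block 13, differed widely between arrays of opposite order. It read -2.47 on array 3, with copper in channel 1, and 1.07 on array 6, with copper in channel 2.

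Lists of genes that work with the ribosome had medians from -0.25 to 0.05 in the pools. The proteins of the acidic stalk, which recruits elongation factors to the large subunit, had a median of 0.05 over 5 genes and none was called. Regulators of ribosomal protein genes had a median of -0.10 over 9 genes and none was called, with IFH1, the coactivator, at -0.27 (limma adjusted p = 0.322). Of 9 elongation genes with a median of -0.20, 1 was called lower, TEF4, a subunit of the exchange factor for elongation factor 1, at -0.73 (adjusted p = 0.0380). YEF3, the fungal elongation factor 3, stood at -0.66 (adjusted p = 0.258), and HYP2, which encodes eIF5A, was the highest of the list at 0.25. Over 15 initiation genes the median was -0.25 and 14 lay below 0, with none called. Their median was -1.08 on array 4 and between -0.44 and 0.22 on the other arrays, and without array 4 the fitted median was -0.14. In this list TIF34, a subunit of initiation factor 3, was lowest at -0.42 (adjusted p = 0.303). Over 10 ribosome-associated chaperones and factors the median was -0.13 and none was called, with SSB1, a chaperone of nascent chains, at -0.96 (adjusted p = 0.0626). FHL1, TEF1 and TIF3 belong to these lists and were not analysed here.

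The second question is whether the strains differed in these genes. No member passed the F-test over the 9 strains in copper, in rich medium, over both media, or for the interaction of strain and medium (limma, adjusted p of 0.05, 54 arrays). Among all genes 3.67% passed in copper, 2.72% in rich medium, 6.99% over both media and 0% (0 of 5524) for the interaction. At an unadjusted p under 0.05 there were 3 members in copper (2.34%, against 11.5% of all genes), 0 in rich medium (0%, against 9.05%), 5 over both media (3.91%, against 15.4%) and 0 for the interaction (against 1.52%).

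The strain means were nonetheless widely spread. The median range between the highest and the lowest strain was 0.85 in copper, 0.93 in rich medium and 0.70 over both media for members, and 0.53, 0.50 and 0.40 for all genes. Members varied more between arrays of the same strain and medium. Their median residual SD was 0.547, against 0.307 for all genes, and 124 of 128 members were above the median of all genes. A 95% interval for a strain against the mean of the other 8 reached 0.449 to either side for a typical member and 0.267 for a typical gene. Differences of members between strains below about that size were not detectable with these arrays. The interval is not adjusted for the number of genes. Larger differences could also stay uncalled, as that of RPL11B in YPS163 (-0.71) did.

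The largest range in copper was that of RPL1A, whose protein forms the mobile stalk near the exit site of the large subunit. In M22 it read 0.11, 0.74 and 0.95, and in YPS163 -1.30, -0.02 and -1.46. The fitted range was 1.53 (limma adjusted p = 0.269), between the strains picked as its highest and lowest. RPL32 followed with 1.50 (M32 to YPS163), RPS30B with 1.43 (M32 to S288C), RPL7B with 1.43 (M22 to YPS163) and RPS24B with 1.37 (M32 to YPS163). In these 5 genes YPS163 or S288C was lowest, and adjusted p ran from 0.269 to 0.829. In the inferred layout RPL1A and RPL7B lay in block 5, and RPL32, RPS30B and RPS24B in block 13. The part of block in these ranges was not tested.

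In rich medium the widest was RPL19A, which read -0.41, 1.32 and 0.37 in M22 and -0.79, -1.31 and -1.31 in M32. Its fitted range was 1.56 (limma adjusted p = 0.816). RPS21B (1.43), RPS24B (1.42), RPS4A (1.42), RPL37B (1.42) and RPS25A (1.40) came next. RPL19A and RPS25A lay in block 8, RPS4A and RPL37B in block 16, RPS21B in block 10 and RPS24B in block 13. M32 was lowest in 4 of these 6, RPL19A, RPS4A, RPL37B and RPS25A. In copper it had been highest in 3 other genes, RPL32, RPS30B and RPS24B. Those stood at 0.005, 0.022 and 0.225 in M32 in rich medium. RPS24B, the only gene named in both media, was lowest in S288C in rich medium, and the interaction passed for no gene. Over both media RPS18B had a range of 0.99. It read -1.28, 0.30 and 1.27 in M22 in copper and -0.26, 1.26 and 1.11 in M22 in rich medium. In YPS163 it read -1.04, 0.44 and -1.19 in copper and -0.80, -1.07 and 0.11 in rich medium. The arrays of the strains overlapped, and the adjusted p was 0.417. RPS26A (0.98, M8 to YPS163), RPS25B (0.97, M22 to YPS163) and RPS24B (0.97, M8 to S288C) were close behind.

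Nearest to the threshold over both media came RPS9A, then RPL34B and RPS9B. RPS9A and RPS9B are the copies for uS4, a protein at the messenger entry of the small subunit. RPS9A had the lowest adjusted p in copper (0.138) and over both media (0.0783), with a range of 0.92 over both media, highest in M22 and lowest in YPS163. On the YPS163 arrays it read 0.43, -0.74 and -2.04 in copper and 0.14, -1.25 and -0.45 in rich medium, high on the replicate 1 array of each medium. RPS9A was the member with the lowest channel effect on the strain arrays, -0.80, where most members were above 0. RPS9B, at an adjusted p of 0.212 over both media and also lowest in YPS163, had a channel effect of 0.29. RPL34B had 0.111 over both media and the lowest adjusted p in rich medium, 0.610.

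A difference between channel orders was common among members. On the strain arrays 89 of 128 members (69.5%) had a called channel effect, where 43% of all genes had one, with a median of 0.43 against -0.01 for all genes. Over the 35 arrays with the strain in channel 1 the median over members ran from -1.29 through 0.06 to 0.62 (lowest, median, highest), and over the 19 with the strain in channel 2 from -0.88 through -0.43 to 0.25. Of these 19 arrays 18 were replicate 1, so channel and replicate 1 can hardly be told apart here, and the other, replicate 3 of M5 in rich medium, had the highest median of the 19. The fits carry the difference as a term per gene. The extremes were RPS31, which encodes a fusion to ubiquitin, at 1.47, and RPS12 at 1.27.

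Taken strain by strain, most members lay on the same side of 0 in some strains, and in others the shift was small. The contrast of a strain with the mean of the other 8, over both media, had a median over the 128 genes of -0.44 in YPS163 and -0.28 in S288C. In the others it was 0.23 in M22, 0.19 in M8, 0.16 in M5, 0.08 in M32, 0.07 in M34, 0.04 in M14 and -0.02 in M13. In YPS163 122 of 128 members lay below 0 and in S288C 123, where 50.5% and 51.1% of all genes did. In M22 112 lay above 0, in M8 110, in M5 105, in M32 89, in M14 and M34 81 each, and in M13 57. YPS163 was the lowest strain for 87 members and S288C for 30, and M22 was the highest for 44, M8 for 29 and M5 for 21.

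The shifts were present all over the array. The median of the members of each block was below 0 in all 16 blocks for YPS163 (from -0.57 to -0.21) and for S288C (from -0.42 to -0.18), and above 0 in all 16 for M22 (from 0.01 to 0.36). Large and small subunit genes shifted alike, with medians of -0.44 and -0.44 in YPS163, -0.28 and -0.26 in S288C, and 0.23 and 0.23 in M22. Their size moved with single arrays and with centring. With the deposited values left uncentred, the contrast of all genes had itself a median of -0.29 in S288C, -0.22 in M22, 0.12 in M13 and 0.15 in M14. M22's members then stood at -0.01 and M13's at 0.11, which turns both signs, while YPS163 stood at -0.39 and S288C at -0.57. With arrays scaled to equal spread, M34 turned to -0.06. Without replicate 1, M34 stood at -0.10, M14 at -0.02 and M5 at 0.003. M5 stood at -0.03 without replicate 3 and at 0.02 with a term for replicate number.

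On the arrays of YPS163, the median over the 128 genes was -0.67, 0.25 and -1.29 in copper and -0.35, -0.77 and -0.18 in rich medium. It was below 0 on 5 of 6 arrays, and replicate 3 in copper was the lowest of all 54. Without that array the YPS163 contrast was -0.23 instead of -0.44, and that of S288C -0.31. On the arrays of S288C the medians were -0.88, -0.45 and -0.28 in copper and -0.50, 0.16 and -0.18 in rich medium, also below 0 on 5 of 6. M13, with a contrast of -0.02, was below 0 on 5 of 6 as well, at -0.50, -0.05 and 0.10 in copper and -0.20, -0.01 and -0.01 in rich medium. M22 gave -0.64, 0.24 and 0.59 in copper and -0.25, 0.12 and 0.54 in rich medium, and M8 gave -0.88, 0.03 and 0.62 in copper and -0.43, 0.58 and 0.33 in rich medium. In both, replicate 1 was below 0 and the other 4 arrays above. The ranges of all strains overlapped.

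**Figure D3:**
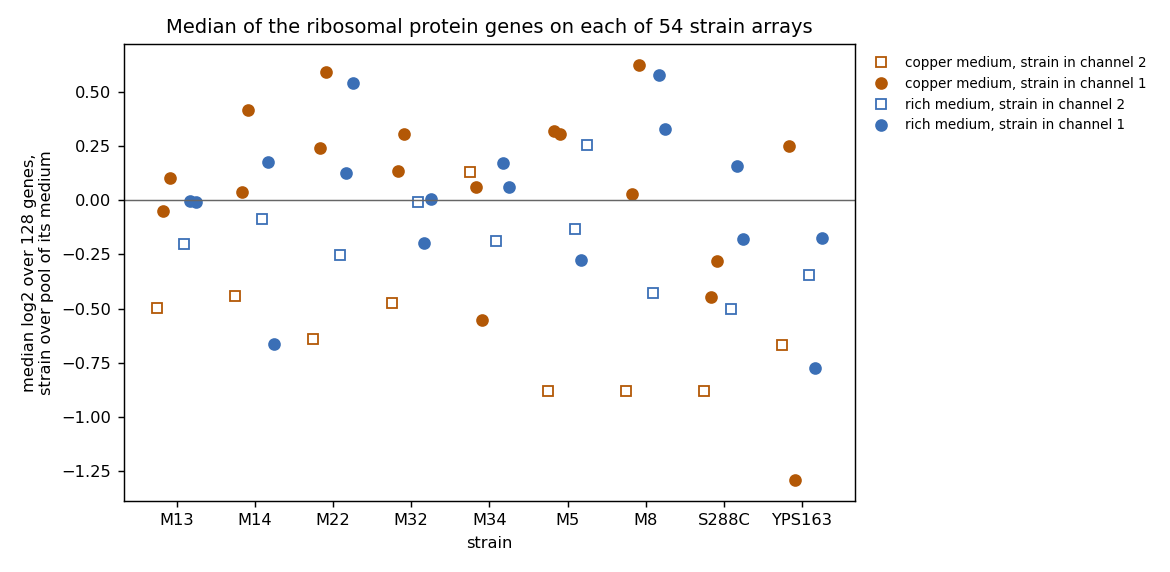
Median log2 ratio (strain over the pool of its medium) over the 128 genes on each of the 54 strain arrays, 3 per strain and medium. Colour gives the medium, and open squares mark arrays with the strain in channel 2. The squares lie low in most strains, YPS163, S288C and M13 each have 5 of 6 arrays below 0, and replicate 3 of YPS163 in copper is the lowest point at -1.29.

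By medium, the shift of S288C was -0.42 in copper and -0.12 in rich medium, and that of YPS163 was -0.47 and -0.36. M14 had 0.22 in copper and -0.15 in rich medium, and M32 0.19 and -0.03. No gene of the table passed the interaction test, so a difference of response between strains was not detected for any member.

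Of single members, 1 was called in 1 strain. RPL34B, which encodes eL34, read -0.56, 0.26 and -1.26 in YPS163 in copper and -0.98, -1.98 and -0.19 in rich medium. It was below 0 on 5 of 6 arrays, with a fitted mean of -0.81 against -0.06 in the other 8 strains. The difference was -0.75 ± 0.19 (SE, limma adjusted p = 0.0312), where 1.48% of all genes were called in YPS163. The call was lost when any replicate number was left out (adjusted p from 0.147 to 0.195), and without replicate 3 in copper alone (0.273). RPL11B, whose protein joins RPL5 on 5S ribosomal RNA, was next. It was below 0 on all 6 YPS163 arrays, from -1.40 to -0.10, with a difference of -0.71 and an adjusted p of 0.0682. At an unadjusted p under 0.05 there were 62 members in YPS163 (48.4%), against 12.2% of all genes. The 62 genes are not separate pieces of evidence, because they moved together on each array.

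In the other 8 strains no member was called by limma. All-gene shares were 4.07% in S288C, 1.76% in M13, 1.56% in M32, 1.19% in M5, 1.05% in M34, 0.597% in M8, 0.434% in M14 and 0.235% in M22. At an unadjusted p under 0.05 the members numbered 9 in S288C (7.03%, against 12.1% of all genes), 6 in M34 (4.69% against 7.17%), 5 in M32 (3.91% against 11.3%) and 5 in M8 (3.91% against 7.46%). There were 4 in M22 (3.13% against 5.49%), 2 in M13 (1.56% against 8.06%), 2 in M5 (1.56% against 9.96%) and 1 in M14 (0.781% against 5.97%). The members with a single side on all 6 arrays numbered 25 in S288C (19.5%, against 14.2% of all genes), 8 in M13 (6.25% against 9.29%), 5 in M34 (3.91% against 5.01%) and 5 in YPS163 (3.91% against 6.05%). There were 2 in M22, 1 in M32, 1 in M8 and 0 in M5 and M14, where between 4.63% and 10.05% of all genes had a single side.

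Among those in S288C, RPS22B read -1.14, -1.01 and -0.59 in copper and -0.60, -0.48 and -0.44 in rich medium, all below 0, with a difference of -0.59 (limma adjusted p = 0.171). RPL17A (-0.48) and RPL34A (-0.47) followed, while RPS10B stood above the other strains by 0.23 (adjusted p = 0.511). In M13 RPS3, at the messenger entry of the small subunit, was lowest at -0.49 (adjusted p = 0.563). Intervals of 95% lay within -1 to 1 for 102 members in YPS163 and for between 124 and 128 members in each of the other strains.

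Within the set, the genes moved together. Over the 18 fitted group means, the correlation between 2 members had a median of 0.46 (8128 correlations), where that between any 2 genes had a median of 0.00. Large with large had a median of 0.42, small with small 0.51 and large with small 0.47. The medians of the subunits correlated at 0.98 (Spearman 0.97), as did those of A and B copies at 0.98 (Spearman 0.96). What is left on the 54 arrays after strain, medium and channel are fitted moved together as well, with a median correlation of 0.50 against 0.01 for all genes. These points share the pool of a medium and the RNA of an array, so they describe a joint shift of the genes whether it arises in the cells or in an array. On the 60 arrays the large subunit median minus the small subunit median stayed between -0.30 and 0.37.

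**Figure D4:**
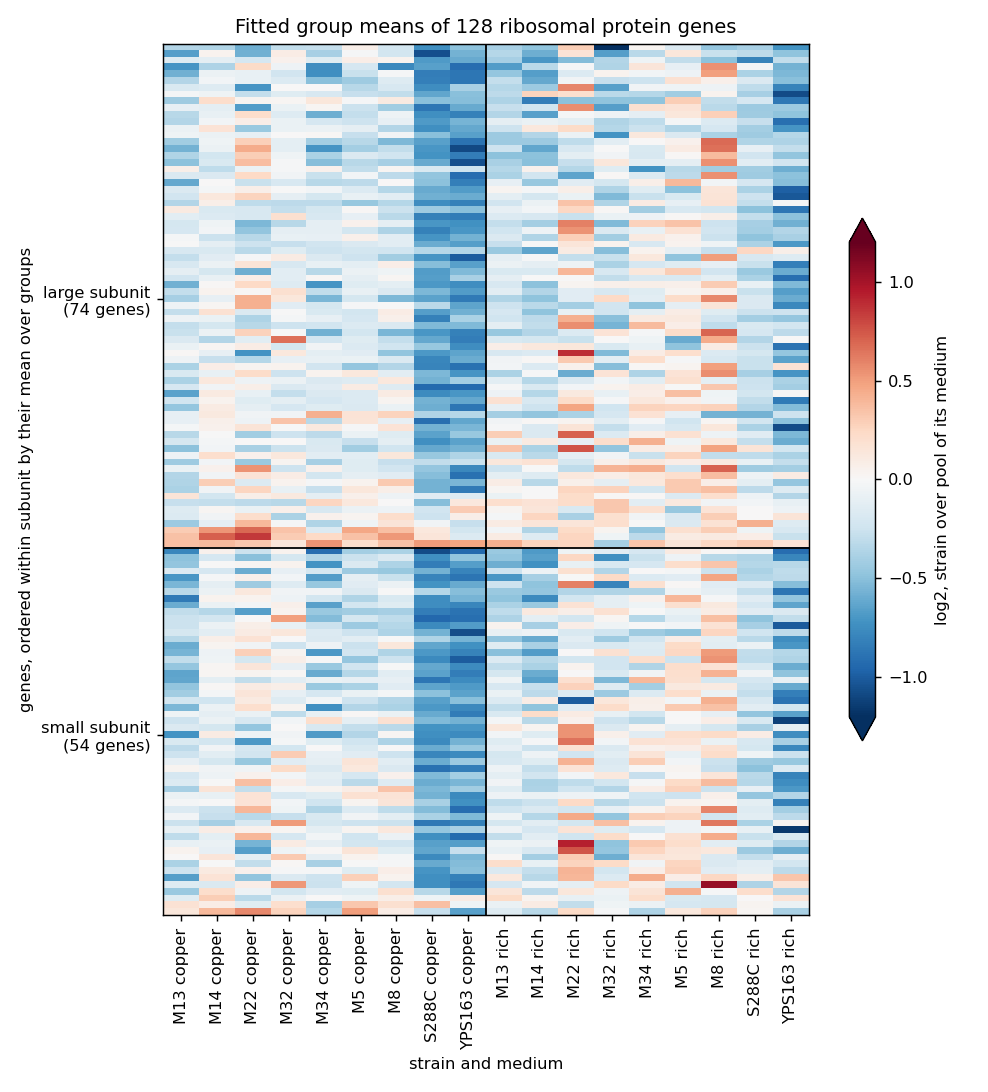
Fitted log2 ratio (strain over the pool of its medium) of the 128 genes in the 9 strains in copper (left of the line) and rich medium (right), with large subunit genes above and small subunit genes below. The columns of S288C in copper and YPS163 in both media are blue through nearly all rows of both subunits. Rows that differ include RPS10B and RPL35A in S288C in copper, and RPS2 and RPL4A in YPS163 in rich medium.

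The member most like the set was RPL40B, which encodes a fusion to ubiquitin, with a correlation of 0.91 to the median of the other members over the 18 group means. RPL16B (0.90) and RPL6A (0.90) came next. The median over members was 0.70, and 110 of 128 were above 0.5. There were 6 below 0, RPS10B (-0.37), RPL35A (-0.30), RPS1B (-0.26), RPL43A (-0.13), RPL35B (-0.09) and RPL14A (-0.07). RPL35 lies at the rim of the tunnel through which the new protein leaves, and both of its copies were among the 6.

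Each array was also centred on the members' own median, a setting chosen after the data were seen, which sets the members' median to 0. In YPS163, 2 of 128 members were then called. RPL43A was 0.59 above the other strains (limma adjusted p = 0.0491) and RPS1B 0.59 above (adjusted p = 0.0483), where 21.9% of all genes were called. Since the setting takes the joint shift of the members out of every gene on the array, these values are given as a description. On the plain scale the same genes were at 0.15 and 0.15 with adjusted p of 0.695 and 0.704. RPS1B read 0.04, 0.31 and -0.04 in copper and 0.10, 0.14 and 0.27 in rich medium on the YPS163 arrays, close to 0 where most members were low. Centring on the members' median also took the members' median residual SD from 0.547 to 0.383, still above the all-gene 0.307.

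Of the companion lists, the ribosome-associated factors followed the set most closely, with a correlation of their median with that of the members of 0.88 (Spearman 0.83) over the 18 group means. The stalk proteins stood at 0.82 (0.69), elongation at 0.78 (0.72), initiation at 0.67 (0.53) and the regulators at 0.25 (0.21). No gene of any list passed an F-test over strains. The widest range was that of ANB1, a copy of eIF5A known to be made when oxygen is low, with 1.70 over both media between M5 and S288C (limma adjusted p = 0.638).

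The third question is whether the A and B copies of a pair behaved alike. The arrays hold 1 row per copy and near-identical copies can share hybridization, so a difference may be understated, and levels of the copies cannot be compared. In the pools the A copy was above the B copy in 34 of 54 pairs. The size of A minus B had a median of 0.21, and it was 0.19 between A and B copies of different pairs. Within 0.5 of 0 lay 48 pairs, with a median standard error of 0.16.

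In the pools 5 of the 54 pairs had an unadjusted p under 0.05, where 14.7% of all genes had one. After adjustment 1 pair was called, where 1.6% of the 5578 rows were called. This was RPS30, whose A copy read -0.19, 0.24, 0.25, -0.66, -0.05 and 0.05 against the values of RPS30B above. A minus B was 0.67 ± 0.14 (SE, n = 6, limma adjusted p = 0.0441). The A copy was higher on 3 of 6 arrays, with a mean difference of 1.53 with copper in channel 1 and -0.19 with it in channel 2. The call was lost without array 1, 2, 3, 5 or 6. RPS30A lay in block 8 and RPS30B in block 13, and in 48 of 54 pairs the copies lay in different blocks.

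RPS24 had the widest difference, 0.81 (adjusted p = 0.117), and it also split by order, with 2.05 in one and -0.43 in the other. RPS24A read 0.13, -0.85, 0.76, -0.44, 0.19 and -0.45, opposite in sign to RPS24B on 5 of the 6 arrays. RPL22 differed by -0.57 (adjusted p = 0.112), with the A copy lower on 5 of 6 arrays and means of -0.78 and -0.35 in the orders. In yeast Rpl22 is known to limit the splicing of RPL22B transcripts. RPL37 (-0.62) also had A below B, with an adjusted p of 0.353.

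**Figure D5:**
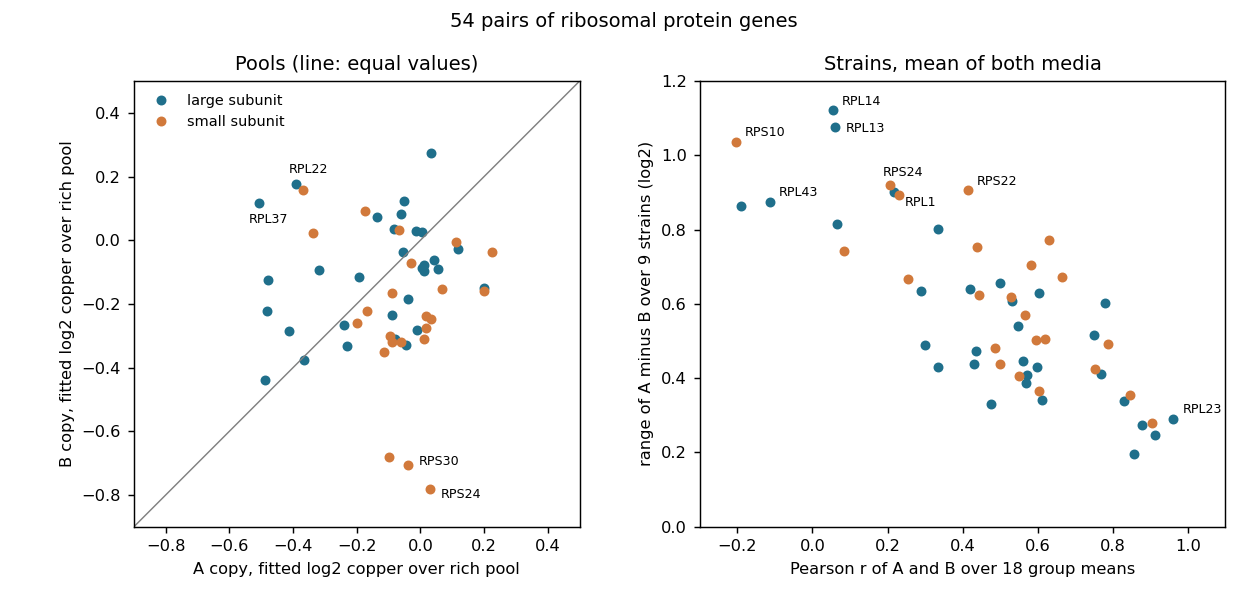
Left, fitted pool change (log2, copper over rich) of the B copy against the A copy for 54 pairs, with a line at equal values. Right, range of A minus B over the 9 strains against the correlation of the copies over 18 group means. On the left RPS24 and RPS30 lie below the line, far from most pairs, and on the right RPL14, RPL13 and RPS10 combine a wide range with a correlation near or below 0.

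Across strains no pair passed the F-test on A minus B (limma, lowest adjusted p = 0.285), where 6.88% of the 5578 rows passed. Of the 54 pairs 1 had an unadjusted p under 0.05, where 15.4% of all genes had one. The range of A minus B over the 9 strains had a median of 0.53 for copies of a pair and of 0.59 for A and B copies of different pairs. The copies of a pair correlated over the 18 group means at a median of 0.54, against 0.46 for copies of different pairs. In 51 of 54 pairs the correlation was above 0 and in 29 above 0.5. It was highest for RPL23 (0.96), RPL6 (0.91) and RPS26 (0.91), and lowest for RPS10 (-0.20), RPL22 (-0.19) and RPL43 (-0.11).

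RPL14 had the widest range, 1.12, from 0.84 in YPS163 to -0.29 in M32 (limma adjusted p = 0.626). On the YPS163 arrays RPL14A read 0.06, 0.28 and 0.00 in copper and 0.15, 0.61 and -0.16 in rich medium, and RPL14B read -1.0, 0.11 and -1.46 in copper and -0.31, -2.25 and 0.95 in rich medium. The A copy stayed near 0 while the B copy followed the low medians of its arrays, apart from the last. RPL13 (1.08, M34 to M8) and RPS10 (1.04, M22 to S288C) came next, then RPS24 (0.92), RPS22 (0.91, with -0.66 in M13, adjusted p = 0.411) and RPL1 (0.90). In RPS10 and RPL14 a single copy was among the 6 members least like the set, RPS10B and RPL14A.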

How the data were processed

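Per the labels, hot phenol extraction was followed by amino-allyl labelling with Cy3 or Cy5, the scanner was a GenePix 4000A and the image software GenePix version 4.0, and spots were marked as bad from the image. The deposited values are log2 ratios: raised to base 2, 100% of those under 10 lay within 1e-05 of a number with 3 decimals. They were neither centred nor scaled (array medians -0.77 to 1.16), and which dye lay in which channel is not given in the sources used here.

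Each array was centred on its median, and a running median over 15 by 15 spots was subtracted, which removed 6.22% to 72.3% of its variance. At most 12 members share a window of 225 spots. Strain arrays were turned to strain over pool. That direction was inferred: the 200 rows that varied most must average 1 as linear ratios over the 9 strains, and their departure was 0.15 (copper) and 0.11 (rich), and 0.41 and 0.36 when reversed. Pool arrays were turned by CUP1. The strain arrays were thereby read as channel 1 over channel 2, and the pool arrays as channel 2 over channel 1. The 2 inferences therefore give opposite numerators to the deposited values, which the labels do not settle. With the same numerator for both, either all strain values or all pool values would take the opposite sign. Of 6144 rows, 5541 had a gene name, 5536 matched the R64 table and 17 genes had several rows, which were averaged.

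limma 3.58.1 in R 4.3.3 fitted 18 group means and a channel effect per gene to the strain arrays, and a mean and a channel effect to the pool arrays, with Benjamini-Hochberg adjustment over 5524 genes (5578 rows with the pair differences). Preparation and figures used SciPy 1.17.1, matplotlib 3.10.9, pandas 2.3.3 and NumPy 2.4.6 in Python 3.11.15. The fits were tested on simulated data. Genes were named by size in each test and, for strains, among members with all 6 arrays on 1 side. Others are named as chosen after their values were seen, as are the 6 genes below 0 in likeness, the extremes of channel effect, the genes of block 13 and the extremes of pair correlation. The members and lists were chosen with earlier results of these data known. No arrays held identical values (highest correlation between arrays 0.774). Precision is limited by the number of arrays, and signal over background was not available in these values. Alternatives were centring only, centring within 16 blocks, deposited values, equal spread, no channel effect, robust empirical Bayes, each row on its own, arrays of 1 medium, a replicate block, leaving out arrays, and, after seeing the data, centring on the members' median and leaving out replicate 3 of YPS163 or of M34 in copper. Results for a few members are not reported here.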

Additional observations from a re-analysis of the deposited data

How the results depend on the processing

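The count of members called in the pools, 2 in the analysis as reported, was 0 with centring only, with deposited values, with equal spread and with no channel effect, 1 with centring within 16 blocks, and 0 to 2 when an array was left out. Of all 5524 genes 88 were called as reported, 78 with centring only, 100 with deposited values and 42 with equal spread. There were 42 with no channel effect, 96 with centring within 16 blocks, and 22 to 123 when an array was left out. The count of pairs called in the pools, 1 as reported, was 0 with centring only, centring within 16 blocks, deposited values, equal spread and no channel effect, 2 with centring on the members' median, and 0 to 1 when an array was left out. In the strains, 1 member passed in rich medium with centring only (RPL14A), and 1 in copper and 1 over both media with equal spread (RPS9A in each). Over both media 0 to 1 passed when a replicate number was left out. The count of members called in any strain, 1 as reported, was 0 with centring only and equal spread, 2 with centring on the members' median, 0 without replicate 3 of YPS163 in copper, 3 without replicate 3 of M34 in copper, and 0 to 3 when a replicate number was left out. With deposited values the 1 call was RPS22B in S288C, and RPL34B in YPS163 was not called. With replicate number as a block the count of members called in any strain was 3, and the other strain counts stayed at 0. Of all genes, 82 were called in YPS163 as reported, 35 with centring only, 62 with equal spread and 1209 with centring on the members' median. There were 61 without replicate 3 of YPS163 in copper and 84 without replicate 3 of M34 in copper. With replicate number as a block there were 106, and 31 to 47 when a replicate number was left out. Deviations of same-numbered arrays from their group means correlated at medians of 0.01 to 0.23 (lowest -0.25). In rich medium they tended to deviate together, with 30 of 36 correlations over 0.1 for replicate 2 and 24 of 36 for replicate 3, but not every pair did, so the numbers were not taken as pairs. RPS24B kept its call with centring within 16 blocks, robust empirical Bayes, rows on their own and the members' median, and lost it with deposited values (adjusted p = 0.407), equal spread (0.0620), centring only (0.0752) and no channel effect (0.857). No result changed sign with a call. The causes were not tested. Limits: the pool tests rest on 6 arrays, 2 of one order and 4 of the other, and the members had a larger residual spread than other genes, so their strain differences were measured less precisely.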
